A study of Mus musculus with 2 samples.

Results

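The miR-379 to miR-410 cluster is a run of miRNA genes in the imprinted Dlk1-Dio3 domain of mouse chromosome 12. Its members were taken by annotation and position alone: every miRNA gene on the plus strand that lies wholly within chr12:109708000-109750000 of the mm10 build. The annotation places 39 miRNA genes there, and 34 of them had a row among the 1973 gene rows of the count tables. Mir299a, Mir380, Mir376b, Mir376a and Mir409 had none. The 34 members span 38.9 kb, from the start of Mir379 to the end of Mir3072.

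The data are microRNA-seq, which sequences RNA of the length of mature miRNAs, from the forebrain of healthy B6NCrl mouse embryos, taken at embryonic day 11.5. There is 1 group with 2 libraries, and nothing was deleted, treated or compared. Replicate 1 is a pool of 109 embryos and replicate 2 a pool of 88, both sexes together, and the labels list 1 donor entry for both pools. With whole tissue, more cells making a miRNA and more of it per cell cannot be told apart.

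A miRNA gene is transcribed into a hairpin from which the enzymes Drosha and Dicer cut a short duplex, and either of its arms, named 5p and 3p, can guide repression of messenger RNAs. Bases 2 to 8 of the guide, the seed, largely set which messages are bound. The hairpins of this cluster are found in placental mammals and are made from the maternally inherited chromosome, on the same strand as the long noncoding RNAs Meg3, Rian and Mirg. Several members are known from neurons: miR-134 limits the size of dendritic spines through Limk1, and miR-134, miR-329 and miR-381 take part in activity-dependent growth of dendrites.

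Many arms of the cluster look alike. RefSeq gives mature sequences for 33 of the 34 members and, with the 5 genes that had no row, 71 arms of 19 to 25 bases with 65 different seeds. For Mir487b, Mir376c, Mir539, Mir485 and Mir453 the table gives 1 arm each, so the counts of arms and seeds cover the arms it lists. The arms of the most abundant members are shown first, since these hairpins carried most of the counts, 5′ to 3′ with the seed in capitals (RefSeq, GRCm38.p6).
miR-487b-5p: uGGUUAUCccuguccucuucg
miR-411-5p: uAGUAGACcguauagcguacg
miR-541-5p: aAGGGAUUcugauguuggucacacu
miR-382-5p: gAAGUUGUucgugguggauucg
miR-369-3p: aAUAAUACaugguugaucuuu
miR-381-3p: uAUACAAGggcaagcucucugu
miR-154-5p: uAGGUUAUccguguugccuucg
The counts were made per hairpin and do not say which arm was read. Among the 71 arms, 42.3% began with U, against 41.2% of the 1667 mouse arms elsewhere in the table.

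Among the arms listed, 6 seeds were each carried by 2 genes of the cluster, and by no listed arm outside it. They are shown as pairs, because a shared seed is where related hairpins could act on the same messages.
miR-379-3p: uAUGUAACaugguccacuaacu
miR-411-3p: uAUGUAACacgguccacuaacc
miR-379-5p: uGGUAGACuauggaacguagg
miR-1193-5p: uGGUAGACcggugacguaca
miR-1197-5p: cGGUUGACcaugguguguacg
miR-758-5p: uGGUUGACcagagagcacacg
miR-494-5p: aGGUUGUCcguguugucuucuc
miR-410-5p: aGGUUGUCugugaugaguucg
miR-453: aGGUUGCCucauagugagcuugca
miR-496a-5p: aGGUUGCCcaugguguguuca
miR-376c-5p: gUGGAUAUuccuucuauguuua
miR-376b-5p: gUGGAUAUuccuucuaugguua
Counted from the 5′ end, miR-411-3p differed from miR-379-3p at 2 of 22 bases, U10C and U22C, and miR-376b-5p differed from miR-376c-5p at 1 base, U19G. Over the whole arm, seed included, the other pairs were less alike: 16 of 21 bases were the same for miR-494-5p and miR-410-5p, 14 of 21 for miR-1197-5p and miR-758-5p, 10 of 20 for miR-379-5p and miR-1193-5p, and 8 of 21 for miR-453 and miR-496a-5p. A further 11 arms shared a seed with arms outside the cluster, among them miR-329-3p with miR-362-3p and miR-410-3p with miR-344d-3p and miR-344e-3p.

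The cluster held 96537 of the 1281201 sense counts of replicate 1, or 7.53% (95% Wilson interval 7.49 to 7.58), and 94746 of 1297647 in replicate 2, or 7.30% (7.26 to 7.35). The mean was 7.42% ± 0.165 (SD, n = 2). All errors marked ± below are such SDs. Intervals here cover counting error only, and not the spread between pools. Reads without molecular identifiers are not independent molecules, so even the counting error may be larger than the intervals show. Levels are in CPM, each gene's share of the sense counts of all miRNA genes scaled to a fixed library size, and are a level of the whole hairpin that was not divided by length. At these depths 3 counts, the limit that a count of 0 allows, are 2.34 CPM in replicate 1 and 2.31 CPM in replicate 2.

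Nearly the whole cluster was detected. Of the 34 members, 31 (91.2%) reached 2 CPM in both libraries, against 424 (21.5%) of all 1973 gene rows. At 100 CPM the numbers were 28 members, or 82.4%, and 11.5% of all rows, and at 1000 CPM 13 members, or 38.2%, and 5.58%. The median member stood at 354 CPM in replicate 1 and 327 CPM in replicate 2. The median of the 653 other genes with a count stood at 7.02 and 6.17 CPM. On the log2(CPM + 1) scale the members' median was higher by 5.49, and by 1.25 when only other genes with 10 counts or more in total were taken.

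A few hairpins dominated. The 5 most abundant members held 62.3% ± 0.788 of the cluster's counts. This share covers only genes with a row. Plus-strand reads over genes without a row, described below, would place Mir409 4th, at a mean of 8751 CPM. The share was not recomputed with them. Mir487b was the highest, at 12025 CPM in replicate 1 and 12093 CPM in replicate 2, and ranked 19 among all gene rows. Mir411 followed at 11815 and 10353 CPM. Mir541 was at 8777 and 9758 CPM, lower in replicate 1. These 3 lay in different stretches of the cluster, and none overlapped another in level.

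Mir382 stood at 7138 and 6956 CPM, and Mir379, the first gene of the cluster and the one that gives it its name, at 6757 and 6724 CPM. Mir369 was at 5874 and 5525 CPM. Mir381, one of the dendrite miRNAs named above, was at 4044 and 4092 CPM. Mir154 closed the leading 8 at 2837 and 2793 CPM. Each of these 8 stood apart from the next in order, with no overlap between the ranges of the 2 libraries.

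Below them the order ran through Mir1193 at 2718 and 2313 CPM and Mir323 at 2468 and 2273 CPM, whose ranges overlapped. Mir134 was at 2001 and 2078 CPM, Mir494 at 1609 and 1579 CPM and Mir300 at 1587 and 1345 CPM, the last of the 13 members above 1000 CPM in both libraries. Mir134, the spine regulator, was thus lower than Mir487b, Mir411 and Mir541 in both libraries. Mir329, the other dendrite miRNA, was at 398 and 331 CPM.

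Another 16 members had means from 103 CPM (Mir668) to 851 CPM (Mir543). Mir543 was at 930 and 771 CPM and overlapped Mir376c, at 874 and 777 CPM. Between Mir377, with a mean of 256 CPM, and Mir666, with 179 CPM, every neighbour in the order overlapped. These libraries thus do not settle the order of neighbours in the run Mir377, Mir539, Mir496a, Mir412, Mir3072, Mir495 and Mir666. Members further apart in this run can be clear of each other. Mir377, at 260 and 251 CPM, was above Mir666, at 195 and 163 CPM. Over all 33 neighbouring positions, 20 were apart and 13 overlapped.

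The low end was sparse. Mir1197 had 16 counts in replicate 1 and 18 in replicate 2, or 12.5 and 13.9 CPM. Mir544 had 6 and 7 counts and Gm27379, a gene with no miRNA name, 3 and 2. Mir654 and Mir453 had 0 counts in both libraries, which allows up to 2.34 and 2.31 CPM. The most abundant hairpin and these last ones thus differed by more than 3 orders of magnitude within 1 cluster. The plot of ordered levels shows this fall.

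**Figure D1:**
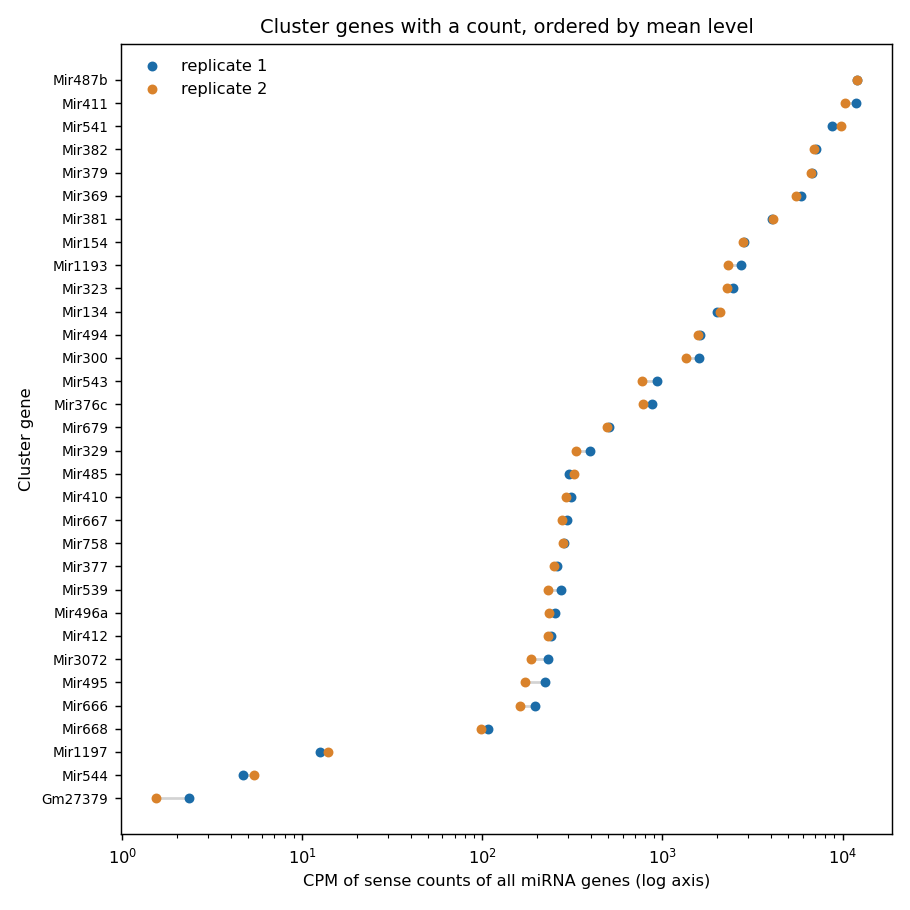
Level of each member with a count in both libraries, in CPM of the sense counts of all miRNA genes (log axis), in order of the mean; points are the 2 libraries. Mir487b stands first at 12025 and 12093 CPM and Gm27379 last with 3 and 2 counts.

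Both libraries gave nearly the same order. 25 of the 34 members held the same rank, no rank moved by more than 2, and Spearman's rho across members was 0.998, a description across genes that share the libraries.

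Levels bore only a weak relation to position. The cluster was divided into 3 stretches of equal length. The first, 13 genes from Mir379 to Mir667, held 36.3% ± 1.54 of the cluster's counts. The middle stretch, 12 genes from Mir376c to Mir485, held 38.0% ± 0.506, and the last, 9 genes from Mir453 to Mir3072, held 25.7% ± 1.03. There were 5, 5 and 3 members with a mean above 1000 CPM in them. Spearman's rho of level with distance from Mir379 over the 32 members with a count was -0.138 in replicate 1 and -0.136 in replicate 2, given as a description with no test. The shares and rho leave out plus-strand reads over genes without a row, described below. Their means were 3535 CPM (Mir299a) and 2173 CPM (Mir380) in the first stretch. Mir376a in the middle stretch had 6477 CPM and Mir409 in the last had 8751 CPM. Shares of the stretches were not recomputed with them.

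**Figure D2:**
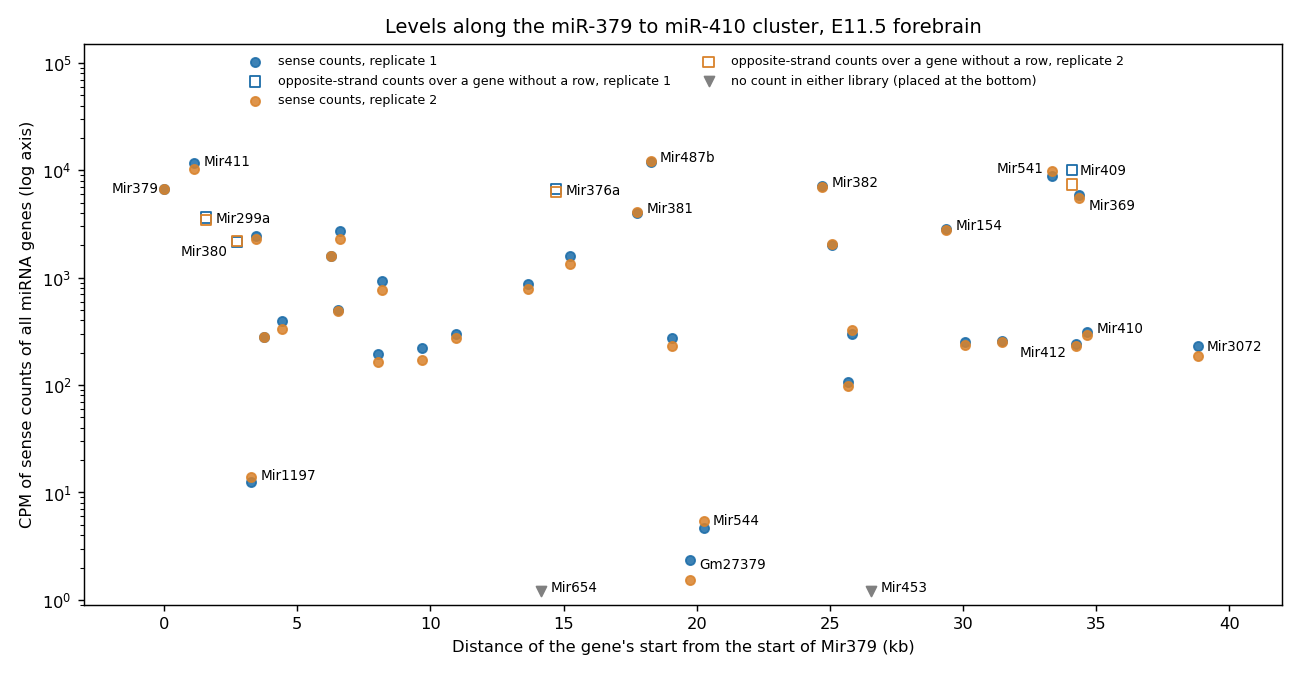
Level of each cluster gene (CPM, log axis) against the distance of its start from that of Mir379 (kb), for the 2 libraries; open squares are genes without a row, read from the opposite strand of an overlapping gene, and triangles are genes with no count. High and low hairpins alternate along the cluster, from Mir487b with a mean of 12059 CPM to Gm27379 with 1.94 CPM.

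Adjacent hairpins often differed greatly. Mir369 and Mir412 lie 49 bases apart, and Mir369 was 24.4-fold higher in replicate 1 and 23.9-fold in replicate 2. On its other side Mir410 lies 218 bases away, and Mir369 was 18.9-fold and 19.1-fold higher than it. Mir323 and Mir1197 lie 71 bases apart and differed 198-fold and 164-fold. Mir1193 was 5.40-fold and 4.68-fold higher than Mir679, 20 bases from it.

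Across the 31 pairs of consecutive members with counts, the median absolute log2 difference in level was 2.25, and 18 differed at least 4-fold. Over all 496 pairs of these members the median was 2.93, so wide differences were not particular to neighbours. The 11 pairs under 500 bases apart also had a median of 2.25, and 6 of them differed at least 4-fold.

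Mirg is annotated at chr12:109729764-109749460, over the second part of the cluster. The 21 members upstream of or outside it held 61.5% of the cluster's counts. Within it, 4 members inside exons (Mir134, Mir485, Mir377 and Mir410) held 3.92%, 5 that overlapped an exon's edge held 17.9% and 4 in introns held 16.6%. Genes without a row, among them Mir409 in an intron, are not in these shares. The exonic and intronic sets each mix high and low hairpins: Mir541 and Mir154 lie in introns beside Mir453, which had no count.

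Sequence composition of the hairpin also gave weak relations to level. Spearman's rho over 32 members was -0.260 and -0.256 with GC content, -0.066 and -0.068 with length, and 0.179 and 0.183 with the folding energy from RNAfold. Members were less GC-rich than other genes with a count, with medians of 45.3% and 52.9%, and ranged from 29.1% for Mir376c to 72.3% for Mir3072.

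Hairpins of the cluster resemble one another far more often than they resemble other hairpins. Of the 741 pairs among the 39 genes, 22 pairs, involving 19 genes, had at least 75% identical bases in alignment (counted over the shorter hairpin), or 2.97%. Of 84006 pairs of a cluster hairpin with one of 2154 miRNA hairpins elsewhere, 24 did, or 0.0286%. This limit was chosen after the values of related pairs had been seen. At 70%, the limit used first, the shares were 8.64% and 0.300%.

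Hairpins that resembled each other could differ widely in level. Of the 18 such pairs with counts for both members, 12 (66.7%) differed at least 4-fold and 3 less than 2-fold. Of the 478 other pairs, 61.9% differed at least 4-fold. At the 70% limit these shares were 61.5% and 62.2%, so wide differences were about as common among less similar hairpins. The median absolute log2 difference of the 18 pairs was 2.47, against 2.99 over the 478 other pairs. At the 70% limit, the 52 pairs had a median of 2.31, and 28.8% of them differed less than 2-fold, against 23.0% of the 444 others, so the share of close pairs was above that of the others at 70% and below it at 75% (16.7% against 23.8%). Pairs share hairpins and are not independent, and no test was made.

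Mir543 and Mir495 were the most alike of the pairs with counts for both, with 84.1% identical bases, and Mir543 was 4.20-fold and 4.48-fold higher. Mir494, Mir154 and Mir382 form a set with 78.8% to 81.8% identity that is spread over the cluster: Mir382 was 4.44-fold and 4.41-fold above Mir494, and Mir154 was 1.76-fold and 1.77-fold above it. Mir381 was 2.55-fold and 3.04-fold above Mir300, with 78.7% identity.

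**Figure D3:**
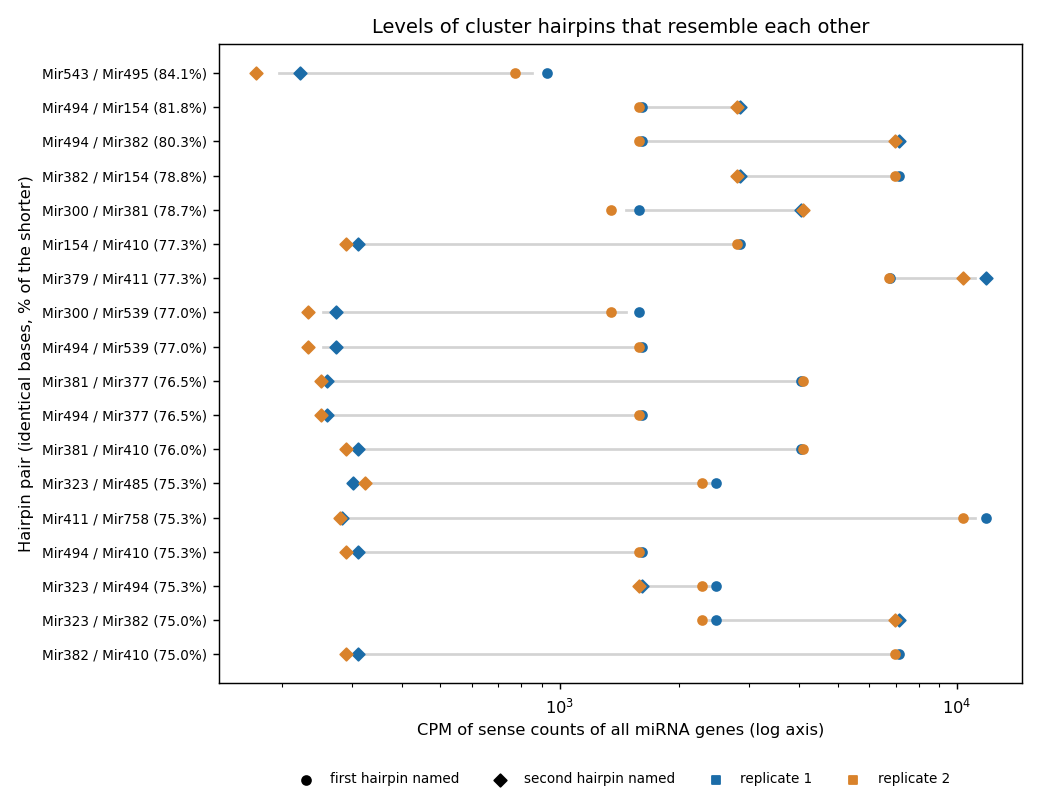
Levels (CPM, log axis) of the 18 hairpin pairs with at least 75% identical bases and counts for both; each row is a pair, circles the first and diamonds the second hairpin named, colours the libraries. The pairs run from 1.49-fold to 39.4-fold apart on the mean of the log2 differences, and the 2 libraries place each hairpin at a similar level.

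The seed pairs behaved in the same way. Mir411 was 1.75-fold and 1.54-fold above Mir379, whose 3p arm has the same seed. Mir379 was 2.49-fold and 2.91-fold above Mir1193. Mir494 was 5.18-fold and 5.45-fold above Mir410, at 311 and 290 CPM. Mir758, at 283 and 279 CPM, was 22.6-fold and 20.1-fold above Mir1197. Mir496a had 252 and 234 CPM while Mir453 had no count. Counts per hairpin do not show whether the arm with the shared seed was the one read.

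Closely similar hairpins can also share whole stretches, and a read that lies wholly within a shared stretch maps to more than 1 place. All reads that map to more than 1 place are listed apart and are outside the gene counts. There were 1165381 in replicate 1 and 1001079 in replicate 2 (41.7% and 39.1% of the mapped reads). Stretches of 20 bases or more were shared by Mir411 with Mir758 (21 bases), Mir376c with Mir376b (31 bases) and Mir487b with Mir376b (20 bases). They are shown in capitals in the whole hairpins, because a read wholly within such a stretch would be missing from these genes' counts. A read that reaches beyond the stretch would not be lost through it. Only annotated miRNA hairpins were compared, so matches elsewhere in the genome were not looked for. In Mir376b the capitals mark the stretch shared with Mir376c, and the stretch shared with Mir487b is bases 63 to 82 of the hairpin.
Mir411, chr12:109710175-109710256, plus strand: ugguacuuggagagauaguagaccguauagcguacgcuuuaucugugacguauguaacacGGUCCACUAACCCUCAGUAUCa
Mir758, chr12:109712810-109712890, plus strand: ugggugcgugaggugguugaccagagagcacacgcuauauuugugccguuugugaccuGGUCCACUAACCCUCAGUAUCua
Mir376c, chr12:109722718-109722803, plus strand: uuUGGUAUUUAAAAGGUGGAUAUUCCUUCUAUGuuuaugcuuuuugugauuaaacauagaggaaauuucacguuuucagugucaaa
Mir376b, chr12:109723458-109723539, plus strand: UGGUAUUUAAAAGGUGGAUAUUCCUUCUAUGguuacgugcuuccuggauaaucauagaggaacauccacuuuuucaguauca
Mir487b, chr12:109727333-109727414, plus strand: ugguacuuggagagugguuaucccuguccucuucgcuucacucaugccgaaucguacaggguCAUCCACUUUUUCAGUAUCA
The 4 members among them, Mir411, Mir758, Mir376c and Mir487b, held 32.7% ± 0.698 of the cluster's counts. This is the share of counts they have, and the reads lost were not measured. Mir376c, the 1 member that shares 22 bases or more, held 1.11% ± 0.0681. Mir411 was 41.8-fold and 37.1-fold above Mir758 although both end in the same 21 bases but for the last letters. None of the 71 mature arms occurs whole in another of the 2202 miRNA hairpins of the annotation, and only miR-376c-5p and miR-376b-5p occur in another with 1 mismatch, each in the hairpin of the other.

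For 4 of the 5 genes without a row of their own, the tables still held reads. For each of these a gene annotated on the minus strand lies over the hairpin and has a row, and the counts of that row on the opposite strand are plus-strand reads over the cluster gene. Mir409 lies under Gm24321, which had 12924 such counts in replicate 1 and 9622 in replicate 2, or 10087 and 7415 CPM of the sense total, the most of any row in both libraries. Mir376a lies under Gm25252, with 6679 and 6275 CPM. Mir299a lies under Mir299b, with 3621 and 3449 CPM, and Mir380 under Gm25750, with 2154 and 2192 CPM. No row overlapped Mir376b.

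Sense counts at these 4 rows were 19 in replicate 1 and 26 in replicate 2, all at Mir299b. Read this way, Mir409 would stand 4th in the cluster by mean, Mir376a 7th, Mir299a 10th and Mir380 14th. The cluster's share would be 9.32% ± 0.363, with 21.98% ± 1.48 of its counts from these 4 genes. They made up 59.1% ± 1.56 of all opposite-strand counts in the tables, while the 34 members had 0 opposite-strand counts.

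The libraries were then compared gene by gene with an exact binomial test against the library totals, adjusted over the 398 genes with 10 counts or more by Benjamini-Hochberg. With 1 library on each side this compares 2 libraries, not conditions, and covers counting error only. Of the 31 members tested, 10 were higher and 1 was lower in replicate 1, while 20.6% of all genes tested were called higher and 7.79% lower. The median log2 ratio was 0.09 over the members and 0.07 over all genes tested. With TMM scaling the split turned to 4 higher and 5 lower, against 13.1% and 13.6% of all genes tested. With DESeq2 size factors it was 4 and 3, against 15.3% and 12.3%, so the direction for the cluster as a whole rests on the scaling.

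The differences were small. Among the 31 members tested, the largest was 1.29-fold, for Mir495 at 222 and 172 CPM (log2 0.37, 95% interval 0.11 to 0.63, exact binomial test with adjusted p = 0.0181). Mir3072, at 232 and 186 CPM, followed with log2 0.31 (0.06 to 0.56, exact binomial test with adjusted p = 0.0450). Mir543 and Mir329 were each at log2 0.27. Mir411 was at log2 0.19 (0.16 to 0.22, adjusted p = 1.78e-27 by the exact binomial test), and 4 other genes in the same direction, Mir1193, Mir300, Mir376c and Mir323, ranged from 0.12 to 0.24, with Mir369 at 0.09. Mir541 was the 1 member called lower, at log2 -0.15 (-0.19 to -0.12, adjusted p = 3.93e-15 by the exact binomial test). The genes read from the opposite strand were not tested. Of these, Mir409 had a larger ratio than Mir495, at log2 0.44. Mir376a was at 0.09, Mir299a at 0.07 and Mir380 at -0.03.

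Of the 31 members, 18 were within 1.1-fold between the libraries. The spread that edgeR estimated over the 398 genes, with the 2 libraries taken as 1 group, was a coefficient of variation of 10.3%. With a coefficient of 0.1 in edgeR's exact test, 0 members were called and 0 had an unadjusted p under 0.05, against 8 called (2.01%) and 21 unadjusted among all genes. Because 0.1 is close to the spread of these same 2 libraries, few calls were largely fixed in advance. No conclusion about the members is drawn from this test.

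**Figure D4:**
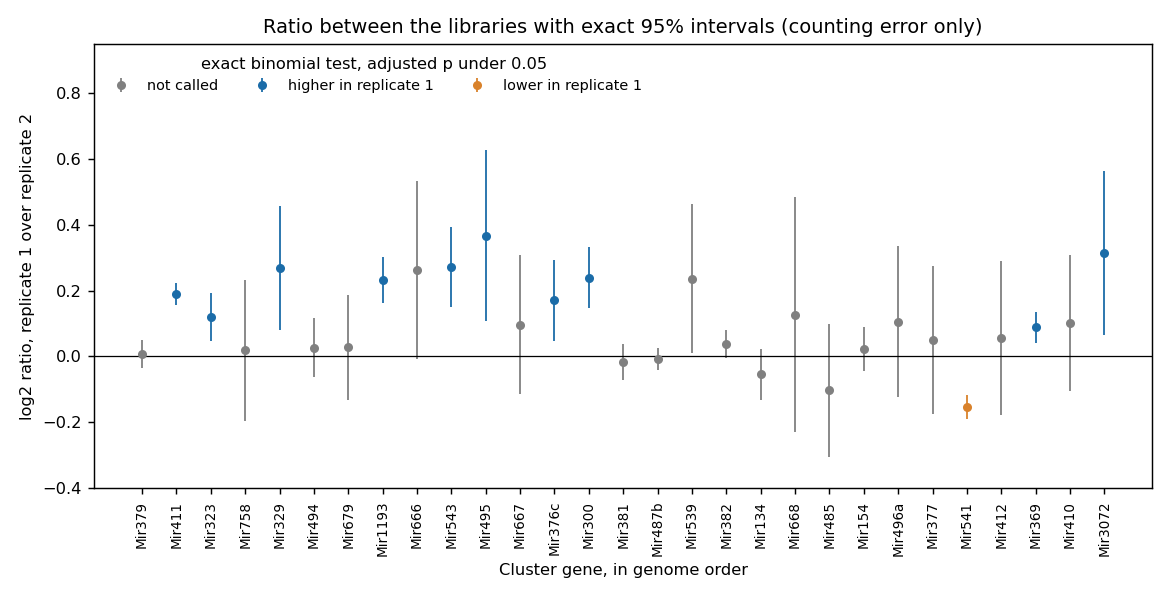
Log2 ratio of replicate 1 over replicate 2 for the members with 100 counts or more over both libraries, in genome order, with exact 95% intervals that cover counting error only; colours give the calls of the exact binomial test. Ratios run from -0.15 for Mir541 to 0.37 for Mir495.

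The domain holds other hairpins upstream, among them those antisense to Rtl1. Of 16 listed, 15 had a row and Mir136 had none. Among the 15, Mir3071 is annotated on the minus strand and the others on the plus strand. Together the 15 held 3.22% ± 0.177 of the sense counts. The cluster's sum was higher by 1.21 ± 0.0474 on the log2 scale. Both sums are of sense counts, with no opposite-strand counts added for genes without a row. The median of the 15 was nonetheless above the cluster's, at 1379 and 1317 CPM. Mir431, at 11171 and 9251 CPM, Mir127, at 7353 and 7583 CPM, and Mir433, at 3067 and 2460 CPM, were the 3 highest. Mir127 is encoded antisense to Rtl1, as are Mir431 and Mir433.

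Neural marker miRNA genes were present: 10 of 11 with a row reached 2 CPM in both libraries, against 21.5% of all gene rows. Their summed level was 60242 and 55926 CPM. Genes of other cell types were also present. All endothelial, mesenchymal, epithelial, erythroid, leukocyte and liver genes listed with a row reached 2 CPM in both libraries. Detection at this level thus does not mark the tissue. Endothelial Mir126a was at 34601 and 30323 CPM, the 4 smooth muscle and mesenchyme genes summed to 14631 and 13228 CPM and the 7 epithelial genes to 8297 and 7756 CPM. Striated muscle genes summed to 238 and 120 CPM, with Mir1a-1, Mir133a-1 and Mir133a-2 at 0, and the 5 Hox cluster genes to 198 and 75.5 CPM, with Mir196a-1 at 0. Erythroid genes were at 581 and 336 CPM, leukocyte genes at 740 and 744 CPM and liver Mir122 at 21.1 and 6.17 CPM. Their part in the levels of the cluster was not tested.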

How the data were processed

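The authors counted reads on mm10 per miRNA gene of GENCODE M4, per the labels and the deposited text files. Which aligner and counter they used is not given in the sources used here. Deposited values are raw counts for both strands, the gene's strand and the opposite strand. The 4 rows per library that name no gene (such as multimapping reads) stayed out of totals and tests. GENCODE M21 gave positions and symbols for 1894 of 1973 rows. M4 was not used here.

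Members followed from annotation and position alone, but the window and the lists were set with earlier results of these data known. Named with values were the 8 highest members, those without a count, those sharing a seed or 20 bases, the 4 with the largest library ratio among the rest, the first and the last; any other gene was named after its values were seen. The identity limit of 75% for related hairpins replaced a first limit of 70% after the values of related pairs were seen, and both are given. Hairpins were aligned with Biopython 1.88 and folded with RNAfold 2.7.2. The library comparison used an exact binomial test with 0.5 counts added for the log2 ratio, and edgeR 4.0.16 and DESeq2 1.42.0 (R 4.3.3) as alternatives. The binomial test was run on simulated data that held counting error only. That simulation cannot show how the test behaves under a spread between pools. Replicates are separate pools, and the p-values of the binomial test cover counting error only, not the spread between pools.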

Additional observations from a re-analysis of the deposited data

Results flagged for a closer look

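Plus-strand reads were found over 4 cluster genes that have no row, in the opposite-strand column that the comparisons do not use. They averaged 8751 CPM ± 1890 (SD, n = 2) over Mir409, 6477 CPM ± 285 over Mir376a, 3535 CPM ± 121 over Mir299a and 2173 CPM ± 27.0 over Mir380. Each is above the 2.34 CPM that a count of 0 allows. No control samples exist in the series.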

How the results depend on the processing

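The cluster's share of 7.42% became 7.16% with both strands counted, 12.6% without the 10 most abundant other genes and, chosen after seeing the data, 9.32% with the opposite-strand counts over genes without a row. The log2 difference between the median member and the median other gene was 5.49, 8.41 with no filter, 1.25 among genes with 10 counts or more, and 5.58 and 4.89 with pseudocounts of 0.5 and 5 CPM. Members sharing 16 bases held 40.1% of the cluster's counts and those sharing 22 bases 1.11%, against 32.7% at 20. Calls of higher members, of 31 tested, went from 10 to 4 with TMM, 4 with DESeq2 and 0 with the edgeR exact test. Over all genes tested the shares called higher were 20.6%, 13.1%, 15.3% and 2.01%. Calls of lower members went from 1 to 5, 3 and 0, against 7.79%, 13.6%, 12.3% and 0% of all genes tested. The edgeR result was largely fixed in advance, as said above, and no conclusion is drawn from it. Taken by the median member, the log2 ratio to the upstream hairpins was -1.98, against 1.21 by the sum. The median log2 difference of related hairpins was 2.47 at 75% identity and 2.31 at 70%. Direction held for the other alternatives. The levels of the 19 named members with counts moved at most 1.14-fold without replicate 1 and 1.13-fold without replicate 2. No paired analysis was possible because there is only 1 group. Depth limits Mir1197, Mir544, Gm27379, Mir654 and Mir453.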
